A study of Mus musculus with 2 samples.

Results

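The cells described here are Sox9-positive cells rich in Aldh1l1, Olig2 and Ednrb, called member cells below, in MERFISH data of the E16.5 mouse head. MERFISH reads single RNA molecules in tissue by imaging fluorescent barcodes. A cell was chosen by 5 criteria applied to its own counts. It had at least 20 transcripts of the 500 panel genes, at least 3 transcripts of Aldh1l1, Olig2 and Ednrb together that made up at least 3% of its panel transcripts, and at least 1 transcript of Sox9. It also had fewer than 2 transcripts of Gpr17 and Pdgfra together, and at least as many of Aldh1l1 and Olig2 as of Hopx and Aldoc. Of 156481 cells with at least 20 transcripts in both sections, 3745 met all criteria, 748 of 55231 in the control section and 2997 of 101250 in the knockout (KO) section. Since these 8 genes selected the cells, their levels are given as a description only.

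Both groups are a single 10 µm coronal section from an E16.5 embryo, and both embryos carried Sst-Cre and the tdTomato reporter. The KO embryo carried in addition loxP-flanked Dnmt1 (Sst-Cre/tdTomato/Dnmt1 loxP2), so that Dnmt1, the gene of a DNA methyltransferase, is deleted where Sst drives Cre. Dnmt1 was not on the panel, and the deletion could therefore not be checked in these sections. The member cells themselves contained little Sst, with 12 transcripts among the 748 control and 58 among the 2997 KO member cells. Depth differed between the sections, with a median of 20 panel transcripts per segmented cell in the control and 101 in the KO. With 1 section per group no difference has a replicate check, and the imaging run and the genotype cannot be told apart. All intervals given are 95% intervals of counting error, and no test was run.

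As background, the wall of the embryonic ventricles holds radial glia, elongated progenitors that first make neurons and later astrocytes and oligodendrocytes. Olig2 encodes a transcription factor needed for the oligodendrocyte lineage and is also made by progenitors of the ganglionic eminences, the ventral source of interneurons and striatal neurons. Aldh1l1 encodes a folate enzyme used as an astrocyte marker, Ednrb an endothelin receptor of astroglia and neural crest, and Sox9 a transcription factor of neural progenitors and astroglia. Gpr17 and Pdgfra mark oligodendrocyte precursors, and Hopx and Aldoc are found in cortical radial glia and astrocytes, which is why the rule limits them.

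The genes that chose the cells were distributed as follows. A control member cell held on average 1.11 transcripts of Aldh1l1, 1.53 of Olig2, 1.37 of Ednrb and 3.04 of Sox9, and a KO member cell held 2.96, 2.48, 2.33 and 6.25. Aldh1l1 was present in 54.3% of control and 75.1% of KO member cells, against 2.04% and 3.74% of the other cells. Olig2 was present in 67.6% and 75.1%, and Aldoc, which the rule limits but does not forbid, in 23.3% and 52.6%. The control cells lay close to the count limit, with 378 of 748 (50.5%) at exactly 3 transcripts of Aldh1l1, Olig2 and Ednrb, against 420 of 2997 (14.0%) in the KO. Just outside it, 643 control and 1171 KO cells met the criteria on Sox9, Gpr17, Pdgfra, Hopx and Aldoc but held exactly 2 of these transcripts. The 3% limit left out a further 11 control and 866 KO cells that met all other criteria.

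Most member cells lay in neighbourhoods rich in Top2a. On the map, as judged by eye, many followed the ventricle, and others were scattered through the tissue. The position of each cell was described by the other cells within 75 µm, the member cells left out. Of control member cells 584 of 748 lay in the quartile of neighbourhoods richest in Top2a, the gene of a topoisomerase of dividing cells, which is 78.1% (74.9–81.0). In the KO it was 2499 of 2997, or 83.4% (82.0–84.7). In that quartile member cells made up 4.23% (3.90–4.58) of control and 9.87% (9.51–10.2) of KO cells, and in the quartile poorest in Top2a 0.181% (0.117–0.267) and 0.324% (0.258–0.402).

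Few member cells lay among cortical neurons. A neighbourhood was called pallial where 5 genes of cortical excitatory cells outweighed 12 genes of subpallial neurons, subpallial in the reverse case, and neither where both lists together stayed under 4% of the transcripts. Pallial neighbourhoods held 19 control member cells, or 2.54% (1.54–3.94), and 71 KO member cells, or 2.37% (1.85–2.98), whereas they held 23.2% and 28.7% of the other cells. Subpallial neighbourhoods held 12.3% (10.0–14.9) of control and 15.2% (14.0–16.6) of KO member cells. The remaining 85.2% (82.4–87.6) and 82.4% (81.0–83.7) lay where neuronal genes of both lists were scarce, against 40.6% and 31.4% of the other cells. The pallial shares of the sections had overlapping intervals, and the shares in the quartile richest in Top2a did not.

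**Figure D1:**
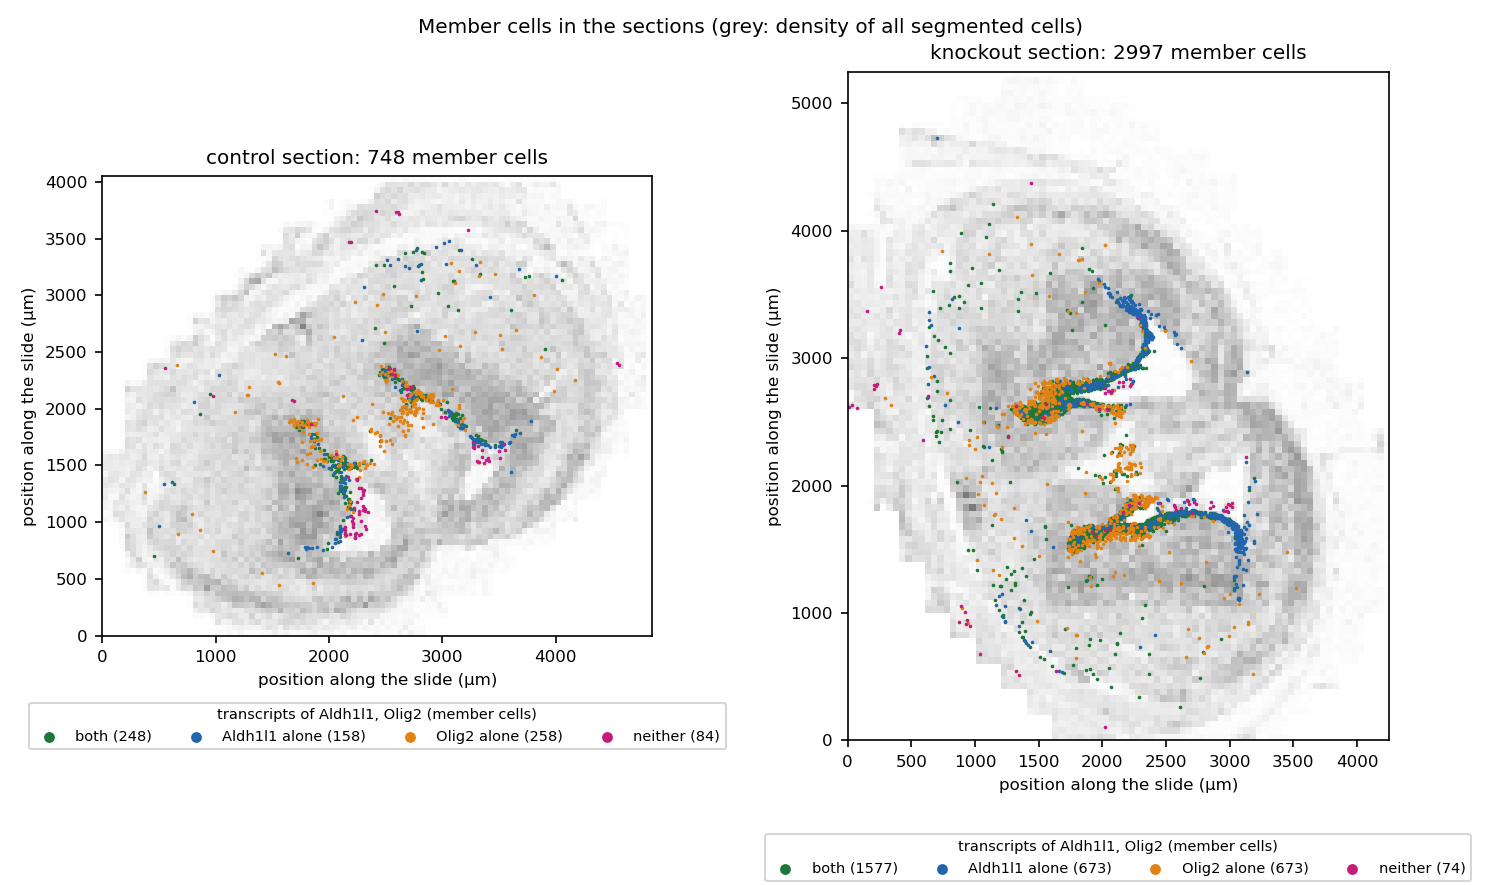
Member cells in the control (left) and KO (right) section, as points at their position in µm, coloured by whether the cell held transcripts of Aldh1l1, Olig2, both or neither, over the density of all segmented cells in grey. Member cells are crowded along the ventricle in the KO section and more spread out in the control, where 22.1% had at least 3 others among their 10 nearest cells against 74.7% in the KO.

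As deposited, member cells lay closer together in the KO section, and at matched depth their grouping among the 10 nearest cells was no closer than in the control. Among the 10 nearest segmented cells of a member cell, 14.5% in the control were member cells too, against 48.7% in the KO, while member cells made up 0.689% and 2.72% of all segmented cells. The median distance to the nearest other member cell was 15.2 µm in the control and 8.70 µm in the KO. No member cell was among the 10 nearest for 263 control member cells, 35.2% (31.7–38.7), and 343 KO member cells, 11.4% (10.3–12.6). At least 3 were found for 165 control cells, 22.1% (19.1–25.2). In the KO this held for 2239 cells, 74.7% (73.1–76.3). The tissue around member cells was not much denser in the KO, with a median of 184 segmented cells within 75 µm against 173 in the control.

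The share of member cells differed between the sections, and its order depended on depth. As deposited, they made up 1.35% (1.26–1.45) of control and 2.96% (2.86–3.07) of KO cells with at least 20 transcripts. Among cells with 20 to 39 transcripts the shares were 1.12% (1.01–1.24) and 1.47% (1.22–1.75), and among those with 40 to 79 they were 1.84% (1.65–2.05) and 3.12% (2.91–3.35). From 80 to under 160 transcripts the control share was 1.23% (0.897–1.64) and the KO share 3.79% (3.6–3.98). When the transcripts of the KO section were thinned at random to the control total and the rule was applied again, 524 of 59772 KO cells were members, 0.877% (0.803–0.955), which is below the control share. When every cell was thinned to 25 transcripts the shares were 0.597% (0.527–0.674) and 0.627% (0.579–0.678).

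**Figure D2:**
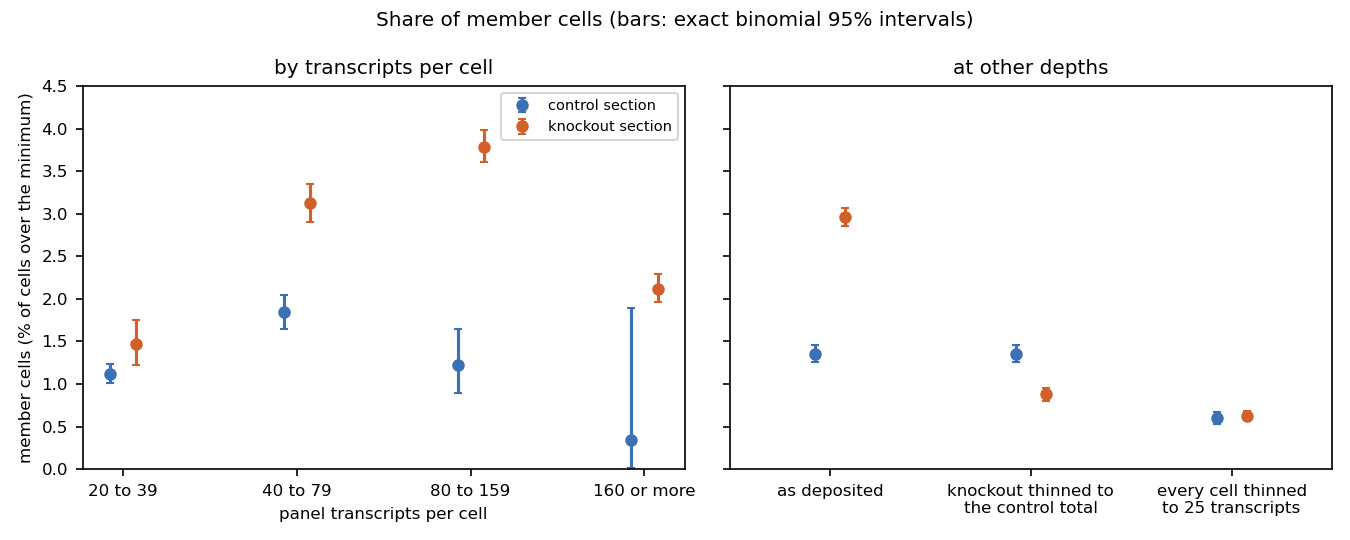
Share of member cells among cells over the minimum in the control (blue) and KO (orange) section, by panel transcripts per cell (left) and at 3 treatments of depth (right), with bars of exact binomial 95% intervals. The KO share of 2.96% as deposited becomes 0.877% after thinning to the control total, while the control share stays at 1.35%.

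The closer grouping of the KO member cells was not seen after depth matching, by the count among the 10 nearest cells. In the thinned KO section the median member cell held 39 transcripts, as in the control. There 222 of 524 member cells had no other among the 10 nearest, 42.4% (38.1–46.7) against 35.2% (31.7–38.7) in the control, and 95 had 3 or more, 18.1% (14.9–21.7) against 22.1% (19.1–25.2). Both pairs of intervals overlapped, and the thinned member cells made up 0.476% of all segmented KO cells, fewer than the 0.689% of the control. The count among the 10 nearest depends on that share, which was not corrected for, and no distance is given for the thinned section. Of the 524 cells, 446 were also members at full depth.

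The identity of the cells was checked with genes that the rule did not use. Levels of these genes are counts per 1000000 panel transcripts (CPM), with the 8 rule genes taken out of the total. The member cells of the control held 27830 such transcripts and those of the KO 312030. Of 246 genes at or above the median level, 32 (13%) were at least 2-fold higher in member cells than in all other cells of both sections, and 89 (36.2%) were at least 2-fold lower in both. The median gene stood at 0.67-fold in the control and 0.52-fold in the KO.

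Radial glial and astrocytic genes were high. Of this list 6 genes were on the panel, 4 reached the median level, and these 4 were at least 2-fold higher in both sections, against 13% of all 246 genes. Mfge8, a secreted glycoprotein made by radial glia and astrocytes, had the highest ratio. It stood at 94430 CPM (90854–98111) in control member cells against 7364 in the other cells, and at 76175 (75210–77150) against 5441 in the KO. The ratios were 12.8-fold (12.3–13.4) and 14.0-fold (13.8–14.2). Fgfr3, a fibroblast growth factor receptor of ventricular progenitors, was 4.64-fold (3.51–6.02) and 6.22-fold (5.76–6.71) higher, and Creb5, a transcription factor, 3.57-fold (2.78–4.53) and 5.64-fold (5.33–5.95). Lhx2, a transcription factor of forebrain progenitors, was 2.34-fold (1.46–3.57) and 2.87-fold (2.64–3.12) higher. Of the genes of mature astrocytes, Aqp4 had 1 transcript in the control and 101 in the KO member cells and Gfap had 3 and 43.

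Olig1 and Bcan of the oligodendrocyte lineage were high as well, and later genes were not above 2-fold in both sections. Of 7 panel genes of the list 5 reached the median level, and 3 were at least 2-fold higher in both sections, against 13% of all 246 genes. Among them Olig1, the close relative of Olig2, was 8.06-fold (7.30–8.89) and 7.80-fold (7.44–8.17) higher, and Bcan, the gene of the matrix protein brevican, 7.39-fold (6.12–8.87) and 8.73-fold (8.18–9.31). Cspg4, which encodes the NG2 proteoglycan of oligodendrocyte precursors, was lower at 0.674-fold (0.498–0.892) and 0.584-fold (0.512–0.664). Opalin and Mog, genes of myelinating cells, had 4 and 1 transcripts in control and 49 and 18 in KO member cells.

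Top2a stood at 44987 CPM (42530–47550) in control and 85755 (84730–86788) in KO member cells, 4.48-fold (4.23–4.74) and 5.36-fold (5.30–5.43) above the other cells. The second cell cycle gene of the panel, Ccnd2, a cyclin that is also abundant in young neurons, stood only 1.15-fold (1.10–1.19) and 1.61-fold (1.59–1.63) higher. Also among the 10 leading genes were Ankfn1, Plch1, a phospholipase, Iqgap2, a scaffold protein, and Ddr1, a collagen receptor. Their ratios ranged from 4.57 to 7.85 in the control and from 4.37 to 8.07 in the KO. Of the 8 signalling receptors and ligands on the panel 7 reached the median level. Among these Fgfr3 alone passed 2-fold in both sections, against 13% of all 246 genes. Egfr, the epidermal growth factor receptor, was close to the limit at 1.98-fold (1.64–2.38) and 3.05-fold (2.88–3.22).

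**Figure D3:**
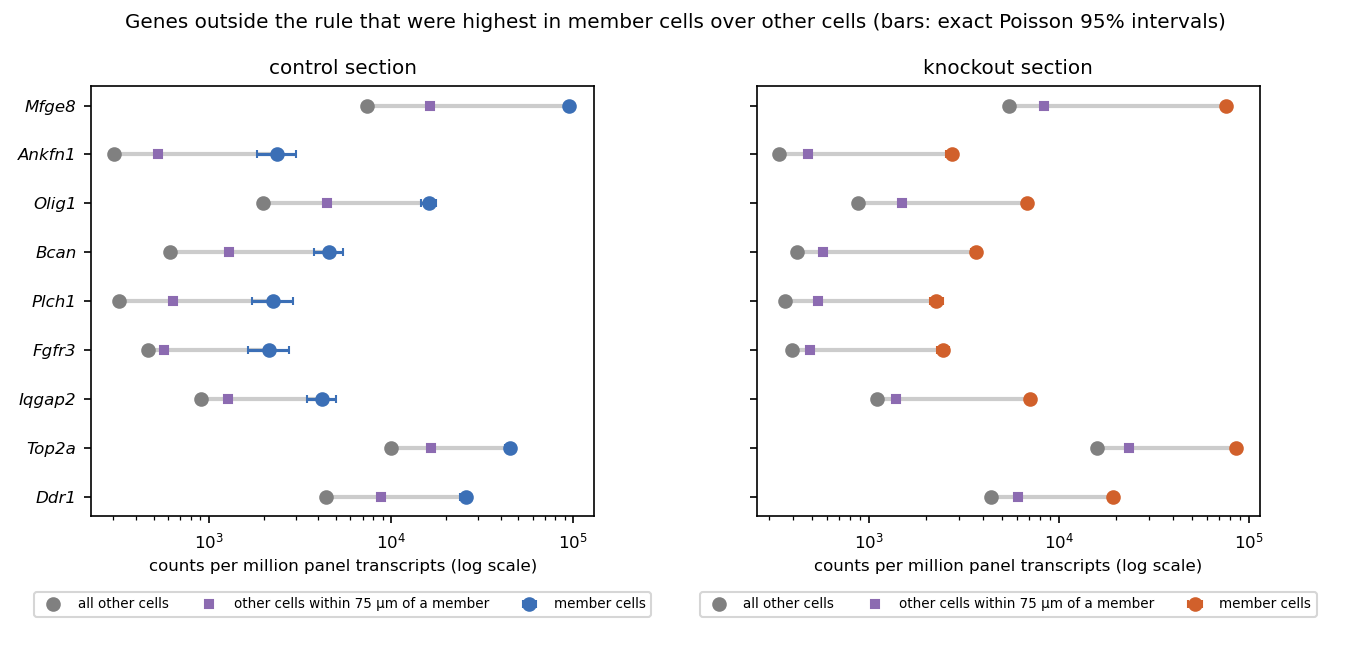
Levels of 9 of the 10 genes outside the rule with the highest ratio of member cells over other cells, in CPM on a log axis, in member cells (coloured, bars of exact Poisson 95% intervals), in all other cells (grey) and in the other cells within 75 µm of a member cell (purple). Member cells lie to the right of both comparators for every gene shown, with Mfge8 at 94430 and 76175 in the control and the KO.

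Part of these ratios was shared with the cells next door. Against the other cells within 75 µm of a member cell, 34 of 246 genes (13.8%) were at least 2-fold higher in both sections. Mfge8 was 5.75-fold (5.50–6.01) and 9.10-fold (8.96–9.25) higher there and Top2a 2.70-fold (2.54–2.87) and 3.65-fold (3.6–3.7). Against these neighbours 4 of the 8 signalling genes passed 2-fold in both sections. Beside Fgfr3 these were Egfr at 2.63-fold (2.15–3.19) and 4.13-fold (3.88–4.39), Hhip, which binds hedgehog ligands and is induced by them, at 2.78-fold (1.78–4.19) and 5.94-fold (5.42–6.5), and Wnt7b, a Wnt ligand, at 2.69-fold (2.14–3.35) and 2.16-fold (2.05–2.27). Htr2c, in contrast, was 9.97-fold and 3.20-fold above all other cells but 2.56-fold and 1.34-fold above these neighbours.

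Many markers of other cell types were lower in member cells. Against 36.2% of all 246 genes, 7 of the 10 projection neuron genes at the median level were at least 2-fold lower in both sections, among them Tbr1 at 0.0808-fold (0.0537–0.117) and 0.0973-fold (0.0881–0.107), and 8 of the 10 GABAergic and striatal genes were. The 11 projection neuron genes summed to 10456 CPM in control and 11509 in KO member cells against 35029 and 37829 in the other cells, and the 14 GABAergic and striatal genes to 12037 and 10063 against 31038 and 38642. Oprm1 of the latter list was at 0 in control member cells. For 8 vascular and mural genes, of which 4 of the 6 at this level were at least 2-fold lower, the sums were 5138 and 6131 against 11476 and 11982. For 8 mesenchymal genes, of which 5 of 7 were lower, they were 6216 and 4237 against 30293 and 27016. The 3 microglial genes Csf1r, Cx3cr1 and C1qa summed to 4060 CPM in control member cells, above the 3233 of the other cells, and to 1554 in KO member cells, below the 2318 of the other cells. Ngfr, the neural crest marker on the panel, stood at 755 and 253 CPM against 1286 and 794, and Eomes, the marker of intermediate progenitors, at 180 and 692 against 421 and 999.

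Shares of cells with a transcript were compared after each member cell had been reduced at random to 25 transcripts, so that 82 control and 7 KO member cells were too shallow to enter. Mfge8 was then found in 69.5% (65.9–73.0) of control and 74.1% (72.5–75.7) of KO member cells, against 12.9% (10.5–15.5) and 13.8% (12.4–15.3) of cells chosen by microglial counts. Before thinning the shares in member cells had been 80.1% and 93.8%, and the microglial cells held a median of 52 and 160 transcripts. Top2a was found in 51.2% (47.3–55.1) and 68.2% (66.5–69.8), and its share in microglial cells was 17.5% (14.7–20.4) and 29.3% (27.4–31.3). Olig1 was found in 21.6% (18.6–24.9) of control and 10.2% (9.14–11.3) of KO member cells, with 2.63% (1.59–4.08) and 2.11% (1.54–2.81) in the microglial cells. Egfr was found in 6.91% (5.10–9.11) of control member cells, no more than the 7.06% (5.30–9.18) of microglial cells, and in 7.66% (6.73–8.67) of KO member cells against 5.30% (4.39–6.34). Aqp4 was found in 0 of 666 control and 0.569% (0.332–0.909) of KO member cells, against 0 and 0.0938% (0.0114–0.338) of microglial cells. Gfap was found in 0.150% and 0.535% (0.306–0.868), against 0.139% and 0.0938% (0.0114–0.338), with overlapping intervals.

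The member cells were not uniform. Both name-giving genes were present in 248 control and 1577 KO cells, 33.2% (29.8–36.7) and 52.6% (50.8–54.4). Aldh1l1 was present without Olig2 in 158 and 673 cells, Olig2 without Aldh1l1 in 258 and 673, and neither gene in 84 and 74, which were members through Ednrb. Absence of a transcript depends on depth, and in the KO section thinned to the control total 33.2% of member cells held both genes. The subsets were described by genes outside the rule.

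Cells with Olig2 alone and cells with Aldh1l1 alone differed in single genes, which do not form a fixed list. Of 246 genes at or above the median level, 10 (4.07%) were at least 2-fold higher and 15 (6.1%) at least 2-fold lower in both sections with an interval clear of equality, a condition set after the values had been seen. Olig1 stood at 32319 CPM (28724–36239) with Olig2 alone and 6268 (4390–8678) with Aldh1l1 alone in the control, and at 15081 (14159–16047) and 1473 (1183–1812) in the KO. Dlx1, a homeobox gene of ventral progenitors and interneurons, stood at 4853 (3526–6515) and 1915 (956–3427) in the control and at 14355 (13456–15298) and 2201 (1843–2608) in the KO. Egfr, Sp8, Sp9, Lhx6, Prox1, Onecut2 and Chrm4 were also higher with Olig2 alone. Sp8, Sp9, Lhx6 and Prox1 are transcription factors of interneurons and their progenitors, but other genes of GABAergic cells were not higher, with log2 ratios of -0.66 in the control and 0.02 in the KO for Gad1 and of -1.66 and -1.61 for Npas1.

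Among the 15 genes lower with Olig2 alone was Fgfr3, which stood at 2786 CPM (1592–4524) with Aldh1l1 alone and 772 (310–1591) with Olig2 alone in the control, and at 3624 (3160–4137) and 923 (706–1185) in the KO. Luzp2 was lower with Olig2 alone by log2 ratios of -2.88 (-4.44 to -1.58) and -4.08 (-4.49 to -3.68), control first, and Daam2, which acts in Wnt signalling, by -2.17 (-3 to -1.39) and -2.48 (-2.75 to -2.22). Mfge8 stood at 110918 CPM (102470–119876) and 76108 (70535–82006) in the control and at 81858 (79592–84171) and 47450 (45804–49141) in the KO, a difference below 2-fold. Markers of other cell types were among these 15 genes as well. Igf2, Dcn and Pdgfrb, which mesenchymal or mural cells also make, and Mrc1, a macrophage gene, were at least 2-fold lower with Olig2 alone in both sections, and their part in the other differences was not tested. Top2a levels were close in both subsets, at 47651 and 47014 CPM in the control and 90620 and 81312 in the KO. Subpallial neighbourhoods held 16.3% (12–21.4) of control and 22.1% (19.1–25.5) of KO cells with Olig2 alone, and 12% (7.4–18.1) and 6.84% (5.05–9.01) of those with Aldh1l1 alone.

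**Figure D4:**
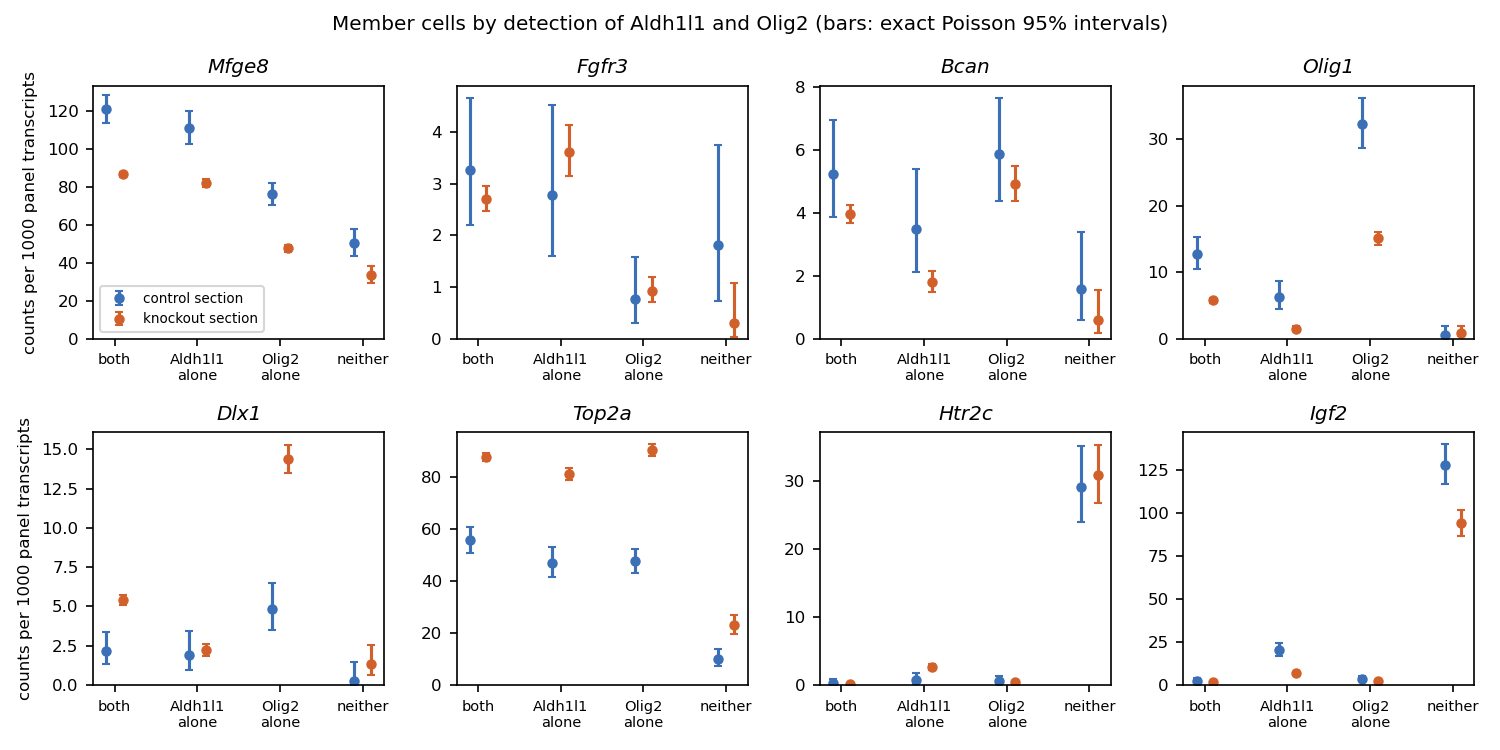
Levels of 8 genes outside the rule in member cells that held transcripts of both Aldh1l1 and Olig2, of Aldh1l1 alone, of Olig2 alone or of neither, with the axis in thousandths of all panel transcripts outside the rule, for the control (blue) and KO (orange) section with exact Poisson 95% intervals. Olig1 and Dlx1 are highest with Olig2 alone, while Htr2c and Igf2 are highest in the cells with neither gene.

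The cells with neither gene went in part against the name of glial progenitors. They made up 11.2% (9.06–13.7) of control and 2.47% (1.94–3.09) of KO member cells, and 6.87% (4.86–9.38) of the 524 in the thinned KO section. Htr2c, a serotonin receptor gene known to be abundant in the choroid plexus, stood at 29136 CPM (23991–35059) in the control and 30801 (26739–35307) in the KO, against 327 (67.4–955) and 140 (90.5–206) in cells with both genes. Igf2, a growth factor of mesenchyme and choroid plexus, stood at 128252 CPM (117179–140089) and 94199 (86986–101850), against 2615 and 1504 in cells with both genes. Bmp7, a secreted signal of the BMP family, stood at 39542 CPM (33506–46352) and 29605 (25625–34029) against 1526 and 1510. Top2a, at 10146 (7215–13870) and 23176 (19671–27125), was lower than in each of the other 3 subsets. The tissue around these cells was sparse, with a median of 113 segmented cells within 75 µm in the control and 102.5 in the KO, against 183 and 185 for cells with both genes. The 8 mesenchymal genes summed to 18470 CPM and 27362 in them, against 3923 and 4195 in cells with both genes. In cells that were not members this sum was 30293 and 27016. Mfge8 stood at 50208 CPM (43374–57813) and 33493 (29250–38178) in the cells with neither gene, still above its level in cells that were not members.

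Crowded and isolated member cells differed too. Member cells with 3 or more others among the 10 nearest had Mfge8 at 136266 CPM (127103–145914) in the control and 90203 (88968–91451) in the KO, and those with none had it at 54009 (49593–58713) and 31666 (29976–33427). Top2a was 55436 (49649–61711) and 94431 (93167–95708) in the crowded cells against 36365 (32759–40261) and 44048 (42050–46116) in the isolated ones. Olig1 ran the other way, and so did Bcan in the KO, while the control intervals of Bcan overlapped. Olig1 was 9295 (7021–12070) and 4813 (4531–5108) in crowded cells against 23133 (20275–26280) and 14313 (13184–15512) in isolated cells, and Bcan 3817 (2420–5728) and 2530 (2327–2747) against 6273 (4831–8011) and 8785 (7906–9736). Genes of other cell types stood higher in isolated than in crowded cells of both sections for Gad1, Tbr1, Dcn, Csf1r, Cldn5, Igf2, Bmp7 and the sum of the 8 mesenchymal genes. Gad1 stood at 332 (40.2–1199) and 443 (361–539) in crowded cells against 4607 (3385–6126) and 4586 (3957–5286) in isolated cells. Tbr1 stood at 332 (40.2–1199) and 359 (285–446) against 1764 (1046–2788) and 5672 (4970–6445), with overlapping intervals in the control, and Dcn at 332 and 44.3 against 2941 and 2148. Csf1r, a microglial gene, stood at 1162 and 434 against 2843 and 1424, Cldn5, an endothelial gene, at 0 and 1064 against 2254 and 3258, and Igf2 at 15436 and 1276 against 27054 and 12261. Bmp7 stood at 6639 and 1307 against 9312 and 8954, and the mesenchymal sum at 4149 and 3824 against 6763 and 5913, with overlapping control intervals for Csf1r, Bmp7 and the mesenchymal sum. Htr2c stood at 5643 (3908–7886) in crowded and 2843 (1904–4082) in isolated cells of the control, with overlapping intervals, and at 204 (149–272) and 2365 (1920–2883) in the KO. In cells with 1 or 2 others among the 10 nearest, Gad1, Tbr1, Dcn, Csf1r and Cldn5 lay between these levels in both sections. Bmp7 did not, at 10084 and 10614, above the isolated cells. Igf2 at 15086 and Htr2c at 6075 in the KO and the mesenchymal sum at 6809 in the control also exceeded the isolated cells. Whether transcripts of neighbouring cells enter these levels was not tested.

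The cells that fail the rule at a single criterion are the most similar to the member cells by construction. Cells with more Hopx and Aldoc than Aldh1l1 and Olig2 numbered 24 of the control and 329 of the KO. In the KO they shared the high Mfge8 and Top2a of the member cells, at 73297 (70462–76216) and 83248 CPM (80226–86356). They differed in Eomes, at 6169 (5366–7057) against 692 (603–791) in member cells, and in Dlx1, at 1251 (906–1685) against 6592 (6310–6884). Pallial neighbourhoods held 13.4% (9.89–17.5) of them in the KO, and subpallial ones 4 of 329. The 24 control cells were too few for these comparisons, with 1 transcript of Eomes and 0 of Dlx1.

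Cells with at least 2 transcripts of Gpr17 and Pdgfra numbered 76 in the control and 356 in the KO. They were richer in Olig1, at 71009 CPM (62731–80075) and 40276 (38585–42023), in Cspg4, at 38174 (32174–44968) and 14558 (13549–15623), and in Bcan, at 11746 (8535–15768) and 10027 (9192–10917). They were poorer in Mfge8, at 17352 (13392–22116) and 16975 (15884–18122). Pallial neighbourhoods held 28.9% (19.1–40.5) and 27.0% (22.4–31.9) of them, and the quartile richest in Top2a 11.8% (5.56–21.3) and 17.4% (13.6–21.8), against 78.1% and 83.4% of member cells. Cells without Sox9 numbered 231 and 280. Mfge8 in them stood at 37089 (33278–41216) and 21432 (19640–23342), less than in member cells, and Ngfr at 2903 (1913–4223) and 3904 (3162–4767), more than the 755 (467–1153) and 253 (200–316) of member cells.

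The KO comparison addresses whether glial progenitors differ where Dnmt1 is deleted from Sst-expressing cells. In member cells 21 of 246 genes at or above the median level (8.54%) were at least 2-fold higher in the KO section and 45 (18.3%) at least 2-fold lower. In all other cells of the sections 11 of the same genes (4.47%) were at least 2-fold higher and 6 (2.44%) at least 2-fold lower. The median log2 ratio of the 246 genes was -0.12 in member cells and 0.02 in the other cells. The filter on level used the mean of both sections, 295.8 CPM, so that 7 of the 21 higher genes lay under it in the control and 19 of the 45 lower genes under it in the KO. These entered only through the section where they were high, which fixed their direction, and 14 higher and 26 lower genes lay above it in both sections. The interval excluded equality for 20 of the 21 higher and 45 of the 45 lower genes. Since the genes had been chosen for passing 2-fold, these counts are a description only. Of these genes 9 higher and 5 lower ones also passed 2-fold in the other cells, and 20 and 40 had the same sign there.

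The 5 highest ratios were those of Epha3, Cd24a, Eomes, Etv1 and Kcnk2. Epha3, an ephrin receptor, had 30 transcripts in control and 2099 in KO member cells, which is 1078 CPM (727–1539) and 6727 (6442–7021), a log2 ratio of 2.64 (2.12–3.21) against 1.81 in the other cells. Cd24a, a surface protein of young neurons and ventricular cells, had 59 and 3106 transcripts and a log2 ratio of 2.23 (1.86–2.63), close to the 2.16 of the other cells. Kcnk2, a potassium channel, had a log2 ratio of 1.58 (1.20–1.99) against 1.34. Eomes and Etv1, a transcription factor, rested on 5 and 7 control transcripts against 216 and 288 in KO member cells. Their log2 ratios were 1.95 (0.70–3.58) and 1.88 (0.81–3.20) against 1.25 and 0.81 in the other cells, and both passed the filter through the KO alone. Each section was also split into 2 sides, by the line midway between 2 computed centres of its cells in pallial neighbourhoods. With these sides taken singly, the ratio of Eomes was as low as 0.46, under 2-fold. Among member cells with another member among the 10 nearest, Eomes had 0 transcripts among 485 control cells and 152 among 2654 KO cells. This subset was chosen after seeing the data and Eomes entered through the KO alone, so nothing is read from it.

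The 5 lowest ratios were those of Kcnh1, Lmx1a, Igf2, Dcn and Moxd1. Kcnh1, a potassium channel, had 35 transcripts in control and 59 in KO member cells, which is 1258 CPM (876–1749) and 189 (144–244), a log2 ratio of -2.73 (-3.36 to -2.09) against -0.45 in the other cells. Lmx1a, a transcription factor of the roof plate and cortical hem, had 29 and 49 transcripts and a log2 ratio of -2.73 (-3.42 to -2.02) against -0.57. Igf2 had 668 and 1474 transcripts and a log2 ratio of -2.35 (-2.48 to -2.21) against -0.65. Dcn, the matrix protein decorin, had a log2 ratio of -2.17 (-2.62 to -1.71) against 0.11, and Moxd1, a monooxygenase-like gene, of -2.14 (-2.74 to -1.51) against -0.67. Kcnh1, Lmx1a and Moxd1 passed the filter through the control alone. With the cells that held neither Aldh1l1 nor Olig2 left out, Kcnh1 came to -0.86 and was no longer past 2-fold, Lmx1a to -1.30, Igf2 to -1.40 and Moxd1 to -1.65, while Dcn stayed at -2.17. The count of lower genes was then 34, of which 26 were among the 45.

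**Figure D5:**
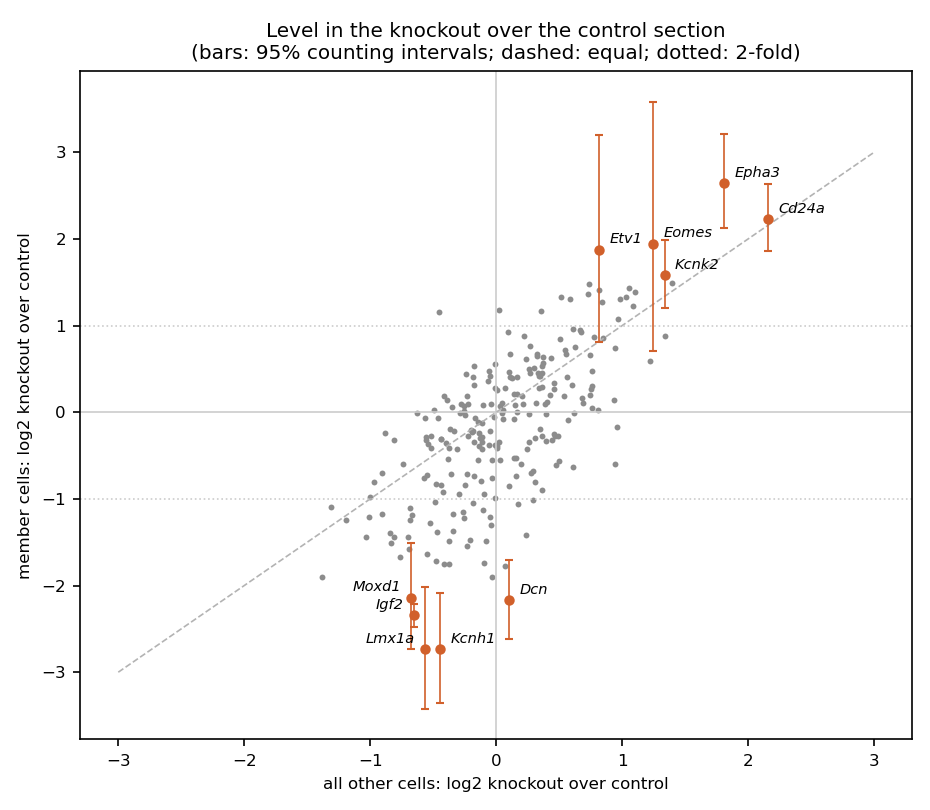
Log2 ratio of KO over control in member cells (vertical) against the same ratio in all other cells (horizontal) for 246 genes outside the rule, with the 5 highest and the 5 lowest named and their 95% counting intervals drawn. The named high genes also lie to the right of 0, with Epha3 at 2.64 and 1.81, while Dcn lies at -2.17 in member cells and 0.11 in the other cells.

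By list, the KO differences in member cells were mixed. Of all 246 genes 8.54% were at least 2-fold higher and 18.3% at least 2-fold lower. Nothing is read from counts within lists this short. The median log2 ratio of the 6 radial glial and astrocytic genes was 0.62, against 0.25 in the other cells, and 1 of the 4 at the median level, Lhx2 at 1.33 (0.71–2.01), was at least 2-fold higher. Lhx2 was higher in the other cells of the KO section as well, since its ratio over other cells, given above, differed far less between the sections. Mfge8 differed little, at -0.31 (-0.37 to -0.25). Of the 5 genes of the oligodendrocyte lineage at this level, Sox6, a transcription factor of precursors and interneurons, was higher at 1.37 (0.83–1.97), and Olig1 at -1.24 (-1.39 to -1.09) and Cspg4 at -1.21 (-1.66 to -0.74) were lower. Over single sides of the sections Olig1 ranged from -1.88 to -0.76, so that the 2-fold call was lost in 2 of the 4 pairings of sides. In the other cells Olig1 stood at -1.19 and Cspg4 at -1.01, so that most of both differences was present throughout the sections. Top2a was higher by 0.93 (0.85–1.01), against 0.67 in the other cells, and Ccnd2 was lower at -0.32 (-0.38 to -0.27), against -0.81.

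Of the 7 signalling genes at this level, Hhip was at least 2-fold higher in the KO and Ngfr and Igfbp5 at least 2-fold lower, against 8.54% and 18.3% of all 246 genes. Hhip had 27 transcripts in control and 677 in KO member cells, a log2 ratio of 1.16 (0.61–1.77), and stood at -0.46 in the other cells. Egfr, at -0.01 (-0.28 to 0.27), and Fgfr3, at 0.19 (-0.19 to 0.59), had counting intervals that included equality. Over single sides Fgfr3 ranged from -0.37 to 0.98. Of the 3 ephrin receptors at this level, Epha3 and Epha5 were at least 2-fold higher, against 8.54% of all 246 genes, Epha5 with 8 control transcripts and a log2 ratio of 1.23 (0.22–2.46) against 1.09 in the other cells, and Ephb2 stood at 0.44 (0.16–0.73). Epha5 passed the filter on level through the KO alone, and Ngfr through the control alone.

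Among marker lists of other cell types, and against 18.3% of all 246 genes, 4 of 6 mesenchymal genes at the median level were at least 2-fold lower in KO member cells (Dcn, Osr1, Thbs2 and Col14a1), as were 2 of 3 microglial genes (Csf1r and Cx3cr1) and 3 of 10 GABAergic and striatal genes (Gad1, Sst and Adora2a). Of these, Col14a1, Osr1, Thbs2, Sst and Adora2a lay under the filter level in the KO and entered through the control alone, so that Dcn of the mesenchymal genes and Gad1 of the GABAergic ones were lower without that condition, and nothing is read from the list counts. Hhip, which is also on the mesenchymal list, was the 1 higher gene there. None of the 7 projection neuron genes and none of the 5 vascular and mural genes at this level passed 2-fold in either direction. The median log2 ratios were -1.43 for the mesenchymal and -1.44 for the microglial genes in member cells, against -0.37 and -0.38 in the other cells. The part of such transcripts in the KO differences was not tested. At matched depth, with the KO section thinned to the control total, 27 genes were at least 2-fold higher and 43 lower, of which 20 and 26 were among the 21 and 45. Epha3 was then at 2.46, Cd24a at 1.96, Kcnh1 at -1.60, Lmx1a at -1.16, Igf2 at -1.16, Dcn at -2.35 and Moxd1 at -1.70. With only the thinned KO and control member cells that had another among the 10 nearest, Moxd1 came to -0.80 and was no longer past 2-fold.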

How the data were processed

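MERFISH had been run on 1 control and 1 KO section with a panel of 500 genes and 50 blank barcodes, and the instrument decoded molecules and segmented cells. The deposited values are raw counts of molecules per cell and gene, without normalization by the authors. The deposited molecule list, over 7 imaging planes, gave the same counts. The segmentation model is not given in the sources used here. Blank barcodes were left out, and took 0.391% and 0.349% of the transcripts in member cells.

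The rule, the member cells and the gene lists were chosen with earlier results of these data known. The whole control section held 2842355 panel transcripts in cells and the KO section 13437174. Member cells held medians of 39 and 102 transcripts and other cells over the minimum 34 and 109. Counts were pooled over cells and scaled to 1000000 transcripts of the 492 genes outside the rule. Cells are not replicates, so no test was run. Shares carry exact binomial (Clopper-Pearson) and sums exact Poisson 95% intervals, and ratios the exact conditional interval. They cover counting error only. A gene was counted as higher or lower at 2-fold, among the 246 at or above the median of the mean level, taken over member and other cells of both sections for ratios over other cells and over member cells of both sections for KO over control. Named were the 8 rule genes, the 10 highest ratios over other cells, the 5 highest and 5 lowest KO over control ratios, and members of the fixed lists. Thinning kept 21.2% of the KO transcripts at random. No doublet caller was run, since cells are segmented objects and carry no barcodes, and the largest 1% by volume were left out as an alternative. Microglial cells were those with at least 3 transcripts of Csf1r, Cx3cr1 and C1qa. Computations used pandas 2.3.3, scipy 1.17.1 and numpy 2.4.6 under Python 3.11.15, and figures matplotlib 3.10.9. The functions were tested on simulated data. Results of 1 gene are not reported here.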

Additional observations from a re-analysis of the deposited data

How the results depend on the processing

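The log2 ratio of the member share, KO over control, was 1.13. It was -0.628 with the KO section thinned to the control total, -0.797 when in addition only member cells with another among the 10 nearest counted, and 0.0699 with every cell thinned to 25 transcripts. It was 1.56 with a minimum of 10 transcripts per cell and 0.859 with 50, 0.436 with at least 2 and 2.68 with at least 5 counts of Aldh1l1, Olig2 and Ednrb, 0.489 with at least 6% of these genes, 1.93 per area, 1.26 for member cells with Aldh1l1 or Olig2 and 1.58 for those with another among the 10 nearest. The sides of the sections taken singly, which are not replicates, gave 1.04 to 1.21. The pallial share of KO member cells was 1.36% with at least 6% and 1.13% for cells with another nearby, 0.662% with thinning as well, and that of control member cells with another nearby 0%. The share of control member cells in the quartile richest in Top2a was 68.1% with a minimum of 50 transcripts, 82.0% with at least 6%, 81.0% for cells with Aldh1l1 or Olig2, 88.5% with another nearby, 82.5% with a radius of 150 µm and up to 81.6% in single sides. In the KO it was 86.1% after thinning, 81.9% with at least 2 and 84.9% with at least 5 counts, 90.7% with at least 6%, 85.4% with Gpr17 and Pdgfra below 1, 84.7% with Aldh1l1 and Olig2 strictly larger, 90.1% with another nearby, 96.0% with thinning as well, 84.9% with a radius of 50 µm and 79.3% to 87.4% in single sides. The 21 genes higher in the KO became 32 with imaging planes 0 to 2, 39 with thinning and another nearby, 43 at 1.5-fold, 73 without the filter on level and up to 35 in single sides, and the 45 lower genes became 73 at 1.5-fold and 84 without the filter. The cause of each of these shifts was not tested. Genes above other cells numbered 24 to 44 over all alternatives, against 32. Alternatives on cells with Aldh1l1 or Olig2, on cells with another nearby and on the comparator within 75 µm were chosen after seeing the data.

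No paired analysis was possible because each group is 1 section. Control member cells had few transcripts, so control levels resting on under 10 transcripts, as for Eomes, Etv1 and Epha5, have wide intervals.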
